A study of Mus musculus with 8 samples.

Results

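Notch signalling was described here across the mouse kidney lines mK4 and mK3 through 10 genes: the receptor genes Notch1, Notch2 and Notch3, the ligand genes Jag1, Jag2 and Dll1, the modifier genes Lfng and Neurl1b, and the target genes Hes1 and Hey1. They were chosen by gene symbol in the deposited count table, and each symbol matched 1 of its 55558 Ensembl genes. The labels give mK4 as metanephric mesenchymal cells with epithelial differentiation and mK3 as uninduced metanephric mesenchymal cells. Both lines were labelled wild type, received no treatment and grew in the same serum-containing medium. Each was represented by 3 RNA libraries and 1 ATAC-seq library, in which a transposase marks accessible DNA. Because each state is 1 cell line, a difference of state and a difference between the lines themselves cannot be told apart.

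Notch receptors are cell-surface proteins that are activated by Delta or Jagged ligands on a neighbouring cell. Ligand binding exposes the receptor to ADAM and gamma-secretase cleavage, and the freed intracellular domain joins the DNA-binding protein RBPJ and a Mastermind co-activator to switch on genes such as those of the Hes and Hey families. In the developing mouse kidney, Notch signalling acts in the renal vesicle as the nephron is patterned, and Notch2 is the receptor that proximal nephron fates mainly need.

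The 6 RNA libraries held 133899125 to 146187601 counts on Ensembl genes. Log2 levels of the tested genes correlated at 0.982 to 0.986 between libraries of one line and at 0.876 to 0.883 between lines. No label tells if a line's libraries were grown as separate cultures, so the p-values describe only how far these libraries spread, which may be technical. Markers of the labelled cell types were mixed, and some defining ones were absent. Summed over 8 listed epithelial genes, mK4 libraries held 1746 to 1831 CPM (the gene's count scaled to a common library size) and mK3 libraries 0.640 to 1.20 CPM, most of it Cdh6 in mK4. The 4 epithelial genes that were tested, Cdh6, Cdh16, Pax8 and Lhx1, were all called higher in mK4. Cdh16, Pax8 and Lhx1 averaged 84.2, 39.4 and 0.569 CPM in mK4 and 0, 0.616 and 0.00756 CPM in mK3. The defining epithelial genes Cdh1, Epcam and Krt8 were too low in both lines to be tested, and Krt18 was at 0 in all 6 libraries. Summed over 12 mesenchymal and stromal genes the levels were 512 to 561 CPM in mK4 and 2438 to 3063 CPM in mK3, with 5 of the 12 higher in mK4 and 7 lower. Most of the mK3 sum was Col1a1, Col1a2 and Col3a1, at 584, 981 and 707 CPM in mK3 and 0.0706, 0.221 and 4.12 CPM in mK4. Vim was among the 5 higher genes, at 231 CPM in mK4 and 172 CPM in mK3. Of the markers of nephron-forming mesenchyme, Six2 was at 0 in all mK4 libraries and had 59, 15 and 61 counts in mK3. Pax2 and Sall1 averaged 30.0 and 10.3 CPM in mK4 and were at 0 in all mK3 libraries, and Eya1 averaged 187 CPM in mK4 and 10.1 CPM in mK3. Osr1 went the other way, at 2.25 CPM in mK4 and 11.2 CPM in mK3, so markers of metanephric mesenchyme went partly with and partly against the label of mK3. Leukocyte markers summed to at most 1.67 CPM in mK4 and 1.84 CPM in mK3, and 8 endothelial markers to 25.0 to 26.5 CPM in mK4 and 20.8 to 25.9 CPM in mK3. Within these near-equal endothelial sums, Cdh5 averaged 7.35 CPM in mK4 and was at 0 in mK3, while Kdr and Tek were at 0 in mK4 and averaged 1.44 and 1.78 CPM in mK3. The part of other cell types in the results below was not tested.

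All 10 genes passed the filter on low counts. Relative to mK3, mK4 had more RNA of Notch1, Notch2, Dll1, Lfng and Neurl1b and less of Notch3 and Jag1, while Jag2, Hes1 and Hey1 were not called. The test was edgeR's quasi-likelihood test, with Benjamini-Hochberg adjustment over all 20405 tested genes and calls at an adjusted p under 0.05. The 5 members called higher stand beside 20.8% of all tested genes called higher in mK4, and the 2 called lower beside 19.5% of all genes called lower. The median log2 fold change of mK4 over mK3 was 1.89 over the 10 members and 0.02 over all genes. The member median includes Jag2, Hes1 and Hey1, which were not called. Since the members were chosen with earlier results of these data known, the comparisons with all genes are a description only. In 7 members every mK4 library lay above every mK3 library, as in 28.8% of all genes, and in 2 every mK4 library lay below, as in 27.2% of all genes. In bulk RNA, fewer cells with a transcript and less of it per cell cannot be told apart.

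**Figure D1:**
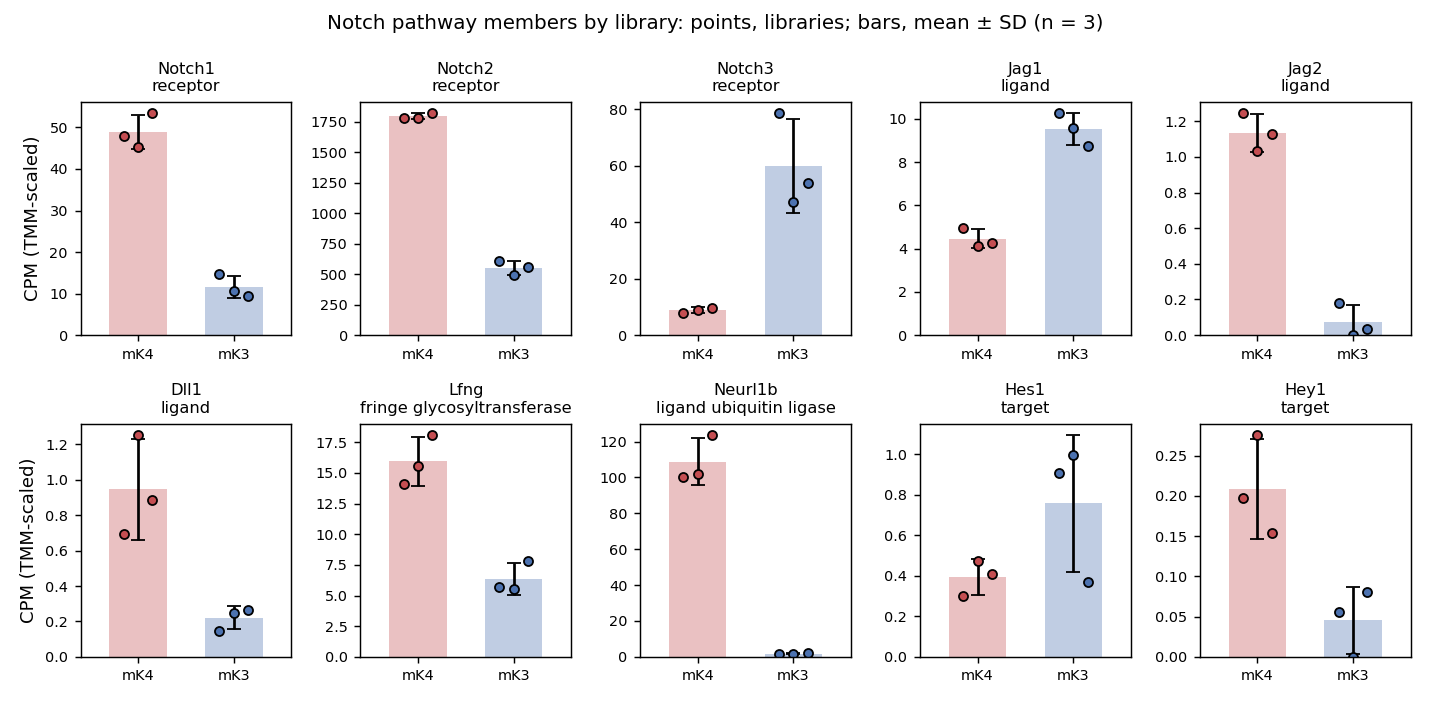
Level of each of the 10 genes in CPM after TMM scaling (y axes differ between panels and start at 0), in mK4 and mK3. Points are libraries and bars are means ± SD (n = 3 per line), and of the 10 genes only Hes1 has libraries of the lines that overlap.

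Among the receptor genes, Notch1 and Notch2 rose and Notch3 fell in mK4. Notch2, on chromosome 3 (ENSMUSG00000027878, chr3:98013538-98150367 in GRCm38, which is mm10), had 242850, 271177 and 273567 counts in the mK4 libraries and 86976, 65359 and 69229 in the mK3 libraries. In CPM these were 1779, 1781 and 1823 in mK4, against 605, 494 and 557 in mK3. The lines did not overlap, and the libraries of mK4 lay within a narrow band. Notch2 was 3.25-fold higher in mK4 (log2 fold change 1.70, SE 0.08, edgeR adjusted p = 4.07e-05).

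Notch1, a receptor gene that T cell development needs, lies at chr2:26457902-26503822 (ENSMUSG00000026923). It had 6549, 6900 and 8029 counts in mK4 and 2107, 1393 and 1183 in mK3, which are 48.0, 45.3 and 53.5 CPM in mK4 and 14.7, 10.5 and 9.53 CPM in mK3. The highest mK3 library stayed well below the lowest mK4 library. Its level was 4.23-fold higher in mK4 (log2 fold change 2.08, SE 0.19, edgeR adjusted p = 0.000364). The RefSeq gene 0610009E02Rik overlaps one end of Notch1 and averaged 455 counts in mK4 and 241 in mK3. RefSeq also lists non-coding genes that overlap Notch2 and Notch3, and the sources used here do not tell if reads were counted by strand.

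Notch3, best known as the receptor of vascular smooth muscle and pericytes, was the receptor gene that fell. It lies at chr17:32120820-32166896 (ENSMUSG00000038146) and had 1053, 1373 and 1451 counts in mK4 against 11296, 6242 and 6664 in mK3. The levels were 7.71, 9.02 and 9.67 CPM in mK4, and 78.6, 47.2 and 53.7 CPM in mK3, where replicate 1 was the highest. The groups stayed far apart, and the log2 fold change was -2.76 (SE 0.22, edgeR adjusted p = 0.000256), which makes Notch3 6.80-fold higher in mK3. Over 5 smooth muscle and pericyte markers, mK4 libraries summed to 2.12 to 3.38 CPM and mK3 libraries to 497 to 584 CPM, most of it Acta2. Among them Cnn1 was also called lower in mK4, Myh11 and Des were not called, and Rgs5 had 0 counts in all mK4 libraries and 71, 0 and 71 in mK3. The part of such cells in the Notch3 difference was not tested.

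The start regions of Notch2 and Notch3 differed in their listed open chromatin, and the 250 bases before each start are shown because accessible DNA was called over one and not over the other. They are from RefSeq (GRCm38.p6), 5′ to 3′ on the strand of the gene. Capitals mark CACNAG, the N-box bound by Hes proteins, on either strand. Notch2 is on the plus strand (chr3:98013288-98013537) and Notch3 on the minus strand (chr17:32166891-32167140).
Notch2: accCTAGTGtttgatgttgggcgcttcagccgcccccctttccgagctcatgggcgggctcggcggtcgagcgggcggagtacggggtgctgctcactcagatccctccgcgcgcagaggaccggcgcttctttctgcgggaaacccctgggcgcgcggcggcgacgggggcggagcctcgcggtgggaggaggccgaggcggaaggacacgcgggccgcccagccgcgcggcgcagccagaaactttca
Notch3: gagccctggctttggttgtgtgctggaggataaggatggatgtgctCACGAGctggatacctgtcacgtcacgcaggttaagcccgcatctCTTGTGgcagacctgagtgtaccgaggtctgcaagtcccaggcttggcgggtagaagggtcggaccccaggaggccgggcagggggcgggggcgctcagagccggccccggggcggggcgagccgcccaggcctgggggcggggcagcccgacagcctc
All 250 bases of the Notch2 stretch lay under a peak in mK4, and 203 of its bases lay under a peak in mK3. No peak of either line covered the Notch3 stretch. The GC content was 72% before Notch2 and 68.8% before Notch3, and the median over 32817 RefSeq windows was 52.4%.

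The make-up of the receptor RNA shifted with these changes. Of the summed counts of the 3 receptor genes, Notch3 took 0.420%, 0.491% and 0.513% in the mK4 libraries, against 11.3%, 8.55% and 8.65% in the mK3 libraries. Notch2 took 97.0%, 97.0% and 96.7% in mK4 and 86.6%, 89.5% and 89.8% in mK3. Notch1 took 2.61%, 2.47% and 2.84% in mK4 and 2.10%, 1.91% and 1.53% in mK3. The lines did not overlap for any of the 3 shares. The Notch2 share averaged 96.9% ± 0.206 in mK4 and 88.7% ± 1.76 in mK3, a difference of 8.22 percentage points (SD, n = 3 per line, exact two-sided permutation p = 0.10). With 3 libraries against 3 the smallest p possible is 0.10, and adjusting over the 6 shares computed leaves it at 0.10. Counts were not divided by transcript length, so only the change of a share between lines can be read, not the rank of the receptors. The share is independent of the scaling between libraries.

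As a description of like patterns, the 3 genes whose centred log2 CPM over the 6 libraries lay closest to each receptor were picked from 8258 candidates, tested genes whose log2 CPM averaged 3 or more. For Notch2 these included Arhgef11 and Cdon, at Euclidean distances of 0.14 and 0.17 on the log2 scale. Cdon, a cell-surface receptor gene, averaged 116 ± 3.62 CPM in mK4 and 35.2 ± 1.57 CPM in mK3 (SD, n = 3 per line). Igf1r, Thbs3 and Nid2 lay closest to Notch1, at 0.19, 0.23 and 0.29, and Igf1r, a growth factor receptor gene, averaged 310 ± 9.59 CPM in mK4 and 71.1 ± 11.9 CPM in mK3. Ebf1, Zyx and Fosl2 lay closest to Notch3, at 0.30, 0.37 and 0.41, and Ebf1, a transcription factor gene, averaged 35.3 ± 4.76 CPM in mK4 and 232 ± 40.5 CPM in mK3. As the 6 libraries form only 2 groups, likeness here mostly means a like difference between the lines.

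**Figure D2:**
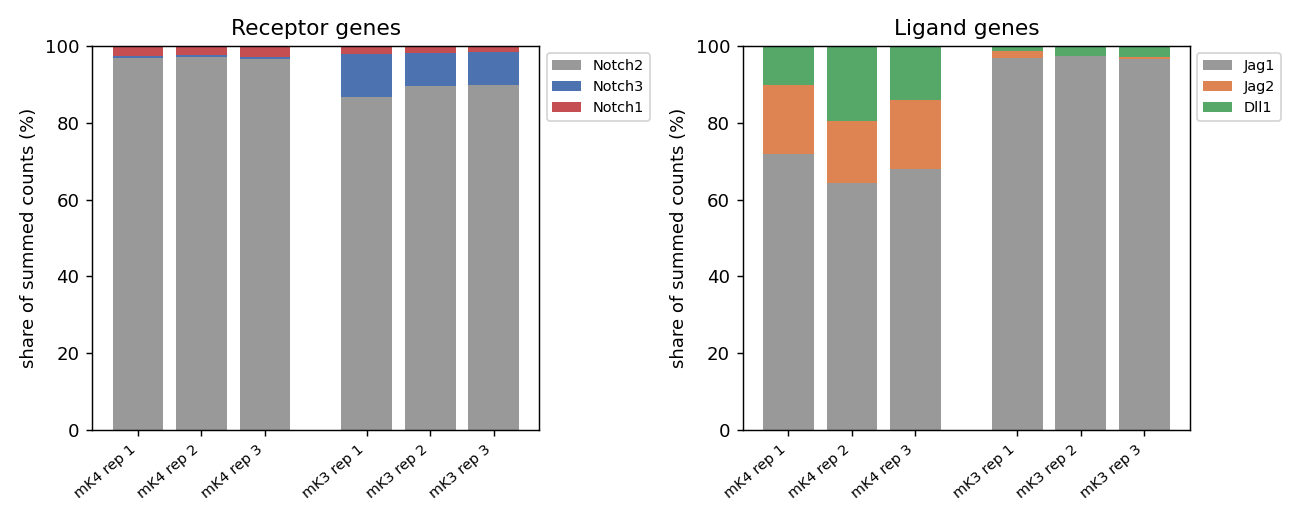
Share of each gene in the summed counts of the 3 receptor genes (left) and the 3 ligand genes (right), in percent, for each mK4 and mK3 library. The Notch3 share is at most 0.513% in mK4 and at least 8.55% in mK3, and the Jag1 share is at most 71.9% in mK4 and at least 96.7% in mK3.

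Among the ligand genes, Jag1 fell and Dll1 rose. Jag2 counts were low in both lines and higher in mK4, without passing the test. Jag1, which encodes Jagged1, the ligand that renal vesicle cells use together with Dll1, lies at chr2:137081451-137116520 (ENSMUSG00000027276). It had 679, 630 and 642 counts in mK4 and 1474, 1266 and 1089 in mK3. The levels of 4.97, 4.14 and 4.28 CPM in mK4 did not overlap with those of 10.3, 9.57 and 8.77 CPM in mK3. The log2 fold change was -1.09 (SE 0.15, edgeR adjusted p = 0.00206), so that Jag1 was 2.14-fold higher in mK3.

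Dll1, which encodes the ligand Delta-like 1, lies at chr17:15367354-15376932 (ENSMUSG00000014773) and had 95, 191 and 133 counts in mK4, against 21, 33 and 33 in mK3. All 3 mK4 libraries, at 0.696, 1.25 and 0.886 CPM, lay above the 0.146, 0.249 and 0.266 CPM of mK3. Dll1 was 4.28-fold higher in mK4 (log2 fold change 2.10, SE 0.45, edgeR adjusted p = 0.0118). The call was lost without mK4 replicate 2, the highest library (edgeR adjusted p = 0.0509, range over 13 alternatives 0.000161 to 0.0509).

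Jag2, a second Jagged ligand gene, lies at chr12:112907803-112929812 (ENSMUSG00000002799) and had 170, 157 and 169 counts in mK4 and 26, 0 and 4 in mK3. That is 1.25, 1.03 and 1.13 CPM in mK4, against 0.181, 0 and 0.0322 CPM in mK3. All mK4 libraries lay above mK3, and relative to its mean the spread was larger in mK3. The log2 fold change of 3.97 had an SE of 1.30 and did not pass (edgeR adjusted p = 0.0533). Jag2 passed in 3 of 13 alternatives, namely with DESeq2 (adjusted p = 0.00402) and in edgeR without mK3 replicate 1 (adjusted p = 0.0223, log2 fold change 6.08) or without mK3 replicate 2 (adjusted p = 0.0353, log2 fold change 3.40). Over all 13 alternatives its adjusted p was 0.00402 to 0.149.

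In the summed counts of the 3 ligand genes, which were 944 to 978 per library in mK4 and 1126 to 1521 in mK3, Jag1 took 71.9%, 64.4% and 68.0% in mK4. In mK3 it took 96.9%, 97.5% and 96.7%. The mean Jag1 share was 68.1% ± 3.76 in mK4 and 97.0% ± 0.387 in mK3 (SD, n = 3 per line, exact two-sided permutation p = 0.10, the smallest possible). The share of Jag2 averaged 17.3% ± 1.10 in mK4 and 0.688% ± 0.902 in mK3, and that of Dll1 14.6% ± 4.75 in mK4 and 2.28% ± 0.806 in mK3 (SD, n = 3 per line).

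The modifier genes Lfng and Neurl1b were both higher in mK4. Neurl1b encodes Neuralized 1B, a ubiquitin ligase that acts on Notch ligands and promotes their endocytosis, and it changed more than any other member. At chr17:26414859-26446321 (ENSMUSG00000034413), it had 13676, 15531 and 18582 counts in mK4 and 234, 231 and 244 in mK3. The levels were 100.2, 102 and 124 CPM in mK4, against 1.63, 1.75 and 1.96 CPM in mK3, with each line tight and far from the other. The gene was 61.1-fold higher in mK4 (log2 fold change 5.93, SE 0.15, edgeR adjusted p = 7.25e-06), a log2 change that was at least as large in size as that of 94.0% of tested genes.

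Lfng encodes Lunatic fringe, a glycosyltransferase that adds sugar to Notch receptors and changes their response to Delta and Jagged ligands. It lies at chr5:140607341-140615545 (ENSMUSG00000029570) and had 1929, 2366 and 2719 counts in mK4, against 814, 737 and 975 in mK3. The levels of 14.1, 15.5 and 18.1 CPM in mK4 lay above those of 5.66, 5.57 and 7.85 CPM in mK3. Lfng was 2.50-fold higher in mK4 (log2 fold change 1.32, SE 0.19, edgeR adjusted p = 0.00241).

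The 250 bases before the starts of Lfng and Neurl1b are shown because a peak was listed over the one in mK4 only and over the other in neither line. Both genes are on the plus strand, Lfng at chr5:140607091-140607340 and Neurl1b at chr17:26414609-26414858. Capitals mark matches on either strand of TGGGAA, the core of the RBPJ motif, of CACNAG, and of CACGTG, an E-box.
Lfng: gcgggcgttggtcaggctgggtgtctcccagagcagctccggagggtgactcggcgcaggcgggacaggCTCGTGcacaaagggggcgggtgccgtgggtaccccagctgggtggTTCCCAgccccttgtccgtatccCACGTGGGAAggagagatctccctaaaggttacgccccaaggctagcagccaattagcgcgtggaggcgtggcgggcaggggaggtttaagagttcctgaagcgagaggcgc
Neurl1b: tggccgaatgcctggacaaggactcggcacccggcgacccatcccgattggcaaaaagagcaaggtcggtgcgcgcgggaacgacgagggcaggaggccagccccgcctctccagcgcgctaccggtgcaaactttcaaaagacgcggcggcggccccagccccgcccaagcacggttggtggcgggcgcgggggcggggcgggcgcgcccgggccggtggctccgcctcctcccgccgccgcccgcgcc
All 250 bases of the Lfng stretch lay under a peak of mK4 and none under a peak of mK3. Lfng held TGGGAA on the printed strand 108 bases before the start, where it shares 2 bases with a CACGTG, and on the opposite strand 135 bases before the start. Neurl1b held none of the 3 motifs. Over the 9 windows of 250 bases before to 50 after the start that RefSeq lists for 8 members, 1 held TGGGAA (25.6% of all 32817 windows), 5 held CACNAG (42.5% of all) and 1 held CACGTG (7.15% of all). Windows of Hes1 and Hey1 were not used here.

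The target genes stayed low in both lines. Hes1, a repressor gene that Notch activates in most tissues, lies at chr16:30065357-30067796 (ENSMUSG00000022528) and had 41, 72 and 61 counts in mK4 and 130, 132 and 46 in mK3. The levels were 0.300, 0.473 and 0.406 CPM in mK4 and 0.905, 0.997 and 0.370 CPM in mK3. The lines overlapped, since mK3 replicate 3 fell among the mK4 libraries. The log2 fold change of -0.94 had an SE of 0.50 and did not pass (edgeR adjusted p = 0.189, range over 13 alternatives 0.0725 to 0.431).

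Hey1, a related repressor gene, lies at chr3:8663359-8667038 (ENSMUSG00000040289) and had 27, 42 and 23 counts in mK4 against 8, 0 and 10 in mK3. All mK4 libraries, at 0.198, 0.276 and 0.153 CPM, lay above the 0.0557, 0 and 0.0805 CPM of mK3. With so few reads the log2 fold change of 2.18 had an SE of 1.17 and did not pass (edgeR adjusted p = 0.192, range over 13 alternatives 0.175 to 0.383).

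**Figure D3:**
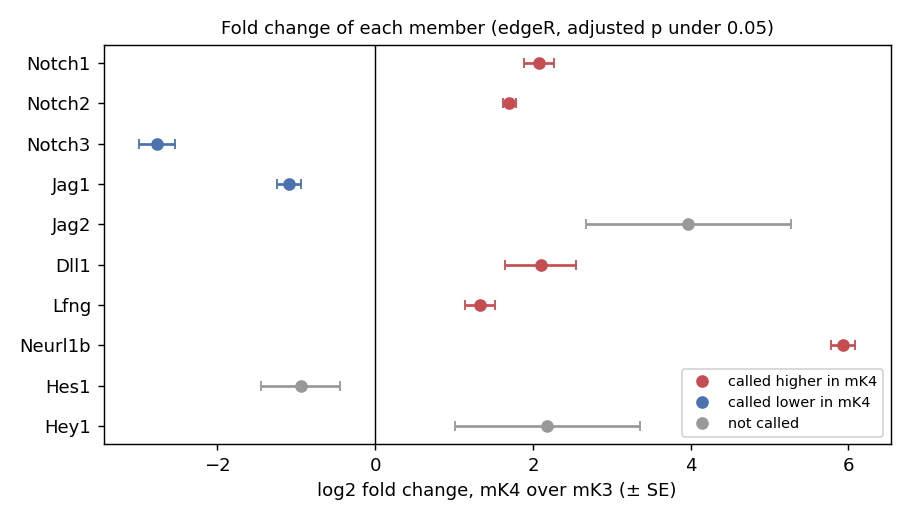
Log2 fold change of mK4 over mK3 for each member, with its SE from edgeR. Neurl1b stands at 5.93 and Notch3 at -2.76, and the error bars of Jag2 and Hey1 are wide, with SEs of 1.30 and 1.17.

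The other genes of the pathway were described from a list of 65 genes, and 57 passed the filter on low counts. Among the 57, 20 were higher in mK4 (20.8% of all tested genes were), 6 were lower (19.5% of all) and 31 were not called. Their median log2 fold change was 0.20, and 0.02 over all genes. This list, too, was chosen with earlier results of these data known. In the nuclear complex, Rbpj, the gene of the DNA-binding partner of Notch, rose to 171 ± 4.23 CPM in mK4, against 39.2 ± 7.92 CPM in mK3 (SD, n = 3 per line, edgeR adjusted p = 0.000186). Among the Mastermind co-activator genes, Maml3 and Maml2 went opposite ways and Maml1 was not called. Maml1 stood at 42.7 ± 1.61 CPM in mK4 and 46.8 ± 16.0 CPM in mK3 (edgeR adjusted p = 0.735). Maml3 rose to 256 ± 64.2 CPM in mK4, against 48.6 ± 6.32 CPM in mK3, and Maml2 fell to 38.1 ± 16.1 CPM in mK4, against 108 ± 20.3 CPM in mK3 (edgeR adjusted p = 0.000301 and 0.0131). Ep300, a histone acetyltransferase gene, was lower at 176 ± 3.58 CPM in mK4 and 223 ± 18.2 CPM in mK3 (edgeR adjusted p = 0.0133), and its call was lost without mK4 replicate 1 (adjusted p = 0.0508) and without TMM scaling (adjusted p = 0.104, range over 14 alternatives 0.000197 to 0.104).

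Among feedback and target genes outside the members, Nrarp, a Notch target whose product restrains the pathway, rose to 1.40 ± 0.227 CPM in mK4, against 0.250 ± 0.111 CPM in mK3 (edgeR adjusted p = 0.00567). Dtx1, which encodes a Deltex ubiquitin ligase, had 19, 33 and 60 counts in mK4 and 0 in each mK3 library, at least 10.4-fold higher in mK4 against a floor of 3 counts per library (edgeR adjusted p = 0.00816, range over 13 alternatives 0.000112 to 0.0854). Hes5 and Heyl were at 0 in all 6 libraries, where a count of 0 allows up to 0.0220 CPM in mK4 and 0.0242 CPM in mK3 (counting error only). Hey2 had 0, 14 and 0 counts in mK4 and 60, 19 and 34 in mK3 and was not called (edgeR adjusted p = 0.177, with 0.0187 to 0.359 over 13 alternatives, the lowest when mK4 replicate 2 was left out). Hes6 and Hes7 were not called either (edgeR adjusted p = 0.236 and 0.888). Bhlhe40 and Bhlhe41 were listed with these genes as repressor genes of the same protein superfamily, and their link to Notch was not tested. They rose to 7.84 ± 1.35 and 5.64 ± 1.21 CPM in mK4, against 3.52 ± 0.364 and 2.61 ± 0.474 CPM in mK3.

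Of the 10 tested genes of receptor cleavage, 4 were higher and 1 was lower, beside 20.8% and 19.5% of all genes. Aph1a and Ncstn, which encode gamma-secretase subunits, rose to 29.1 ± 4.59 and 328 ± 0.775 CPM in mK4, against 13.7 ± 1.07 and 262 ± 9.59 CPM in mK3. Aph1c fell to 2.82 ± 0.411 CPM in mK4, against 5.20 ± 1.08 CPM in mK3 (edgeR adjusted p = 0.0225). The Aph1c call was lost without mK4 replicate 1 (adjusted p = 0.0710), mK4 replicate 2 (0.0790) or mK3 replicate 3 (0.0588), with a range over 14 alternatives of 0.00174 to 0.0790. Aph1c is also close in sequence to Aph1b, so how reads were split between them is uncertain. Adam10, the main receptor-cleaving protease gene, stood at 898 ± 24.6 CPM in mK4 and 996 ± 54.4 CPM in mK3 (edgeR adjusted p = 0.0893, with 0.0487 to 0.700 over 14 alternatives, the lowest when mK3 replicate 3 was left out).

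Of 5 genes that act on Notch sugars, 2 were higher and 1 was lower, beside 20.8% and 19.5% of all genes. So few genes cannot be told apart from these shares. Poglut1 and Eogt, glycosyltransferase genes, rose to 66.4 ± 4.41 and 75.3 ± 3.19 CPM in mK4, against 42.6 ± 1.53 and 41.0 ± 3.08 CPM in mK3. Radical fringe, Rfng, fell to 1.83 ± 0.104 CPM in mK4, against 2.97 ± 0.438 CPM in mK3 (edgeR adjusted p = 0.0443), a call that 8 of 14 alternatives lost, among them the fits without any single library other than mK3 replicate 3 (range 0.00355 to 0.131). Manic fringe, Mfng, had 62, 30 and 100 counts in mK4 and 12, 0 and 0 in mK3 and was not called (edgeR adjusted p = 0.101, with 0.0148 to 0.222 over 13 alternatives, the lowest when mK3 replicate 1 was left out). Of 8 genes of ligand endocytosis, Epn2, which encodes an epsin, and Neurl3 rose to 40.2 ± 5.84 and 40.8 ± 2.59 CPM in mK4, against 21.7 ± 0.431 and 28.9 ± 2.27 CPM in mK3. Dnm2, which encodes a dynamin, fell to 105 ± 26.2 CPM in mK4, against 199 ± 23.0 CPM in mK3 (edgeR adjusted p = 0.0108). Mib1, a ligase gene that acts on ligands as Neurl1b does, stood at 357 ± 102 CPM in mK4 and 325 ± 15.6 CPM in mK3 (edgeR adjusted p = 0.621).

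Of 9 corepressor genes, Ncor1 rose to 305 ± 4.33 CPM in mK4, against 222 ± 15.5 CPM in mK3, and Tle1, a Groucho-type corepressor gene, fell to 23.2 ± 1.07 CPM in mK4, against 67.3 ± 3.99 CPM in mK3. Hdac1 was called higher by a small step, at 124 ± 5.32 CPM in mK4 and 108 ± 1.21 CPM in mK3 (edgeR adjusted p = 0.0457), and 9 of 14 alternatives lost the call, among them the fits without any single library other than mK4 replicate 2 (range 0.00353 to 0.134). Numb, an inhibitor gene of the pathway, stood at 122 ± 7.54 CPM in mK4 and 111 ± 17.3 CPM in mK3 (edgeR adjusted p = 0.460). The endothelial receptor gene Notch4 stood at 0.768 ± 0.233 CPM in mK4 and 0.405 ± 0.284 CPM in mK3 (edgeR adjusted p = 0.383). The ligand gene Dll4 had 0, 43 and 0 counts in mK4 and 0 in each mK3 library and was not tested.

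**Figure D4:**
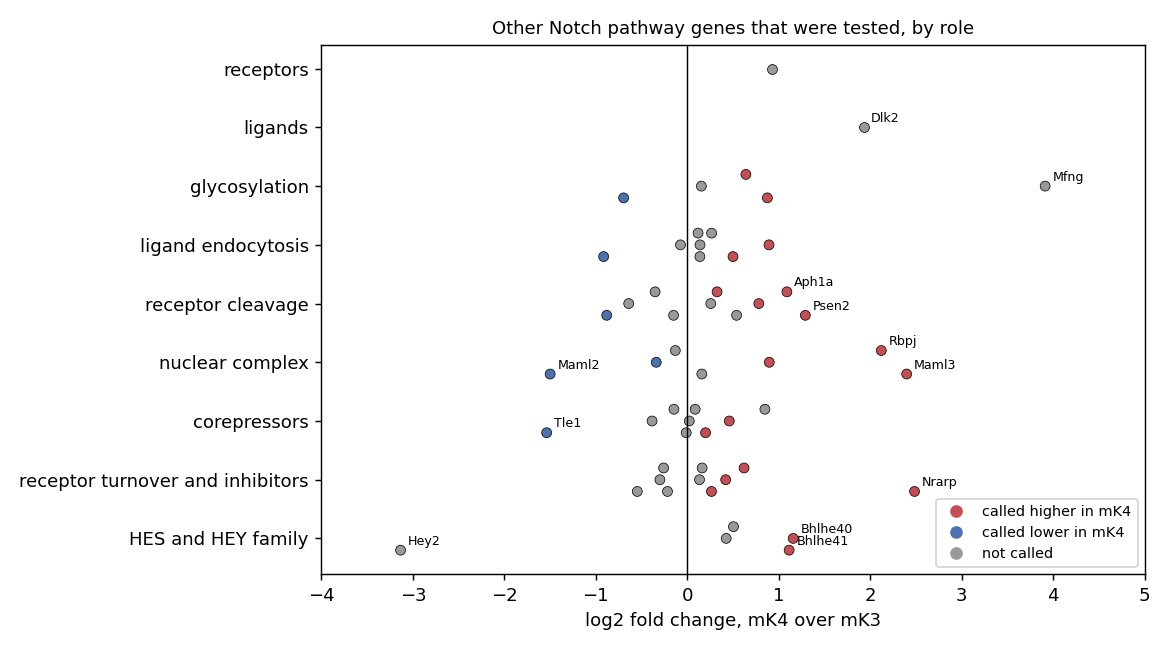
Log2 fold change of mK4 over mK3 for the tested genes of the pathway list other than the members, by role, coloured by call. Rbpj, Maml3 and Nrarp lie at 2.12, 2.40 and 2.48, Maml2 and Tle1 at -1.50 and -1.54, and Dtx1, at 0 in mK3, is left out.

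Open chromatin was compared from the deposited peak lists, 34710 peaks in mK4 and 22477 in mK3 on the autosomes, X and Y. With 1 library per line there is no replicate check, the depth is unknown and the mK4 list is longer, so that the peaks are described only. Fold enrichments and q values are the authors' own for each peak. Notch2 differed most among the members in the number of peaks. Within its gene span 12 peaks were listed in mK4 and 4 in mK3. All 4 mK3 peaks overlapped an mK4 peak, and 8 of the mK4 peaks had no partner. These peaks were 5708 bases long in all in mK4 and 2115 in mK3, including the part of each start peak that lies before the gene. Of 16640 tested genes with coordinates, 96 held at least 12 peaks in mK4 and 618 held at least 4 in mK3. A gene held 1.39 peaks on average in mK4 and 0.983 in mK3. These counts were not divided by gene length, and a longer gene has more room for peaks.

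The strongest Notch2 peak of mK4 (chr3:98056876-98057526, 43.7 kb after the start) had a fold enrichment of 9.81 over background and a -log10 q of 109. It overlapped the strongest one of mK3 (chr3:98056899-98057443), with a fold enrichment of 6.09 and a -log10 q of 21.9. The next strongest in mK4, at chr3:98147458-98148191 near the far end of the gene (fold enrichment 9.36, -log10 q 89.8) and at chr3:98106608-98107193 (6.93 and 59.9), had no partner in mK3. Notch1 had 1 peak in its span in mK4, 9.18 kb after the start (chr2:26494532-26494745, fold enrichment 3.82), and 0 in mK3. Notch3 had 0 peaks in its span in either line, and a peak centred 6558 bases before its start was listed in mK3 only (chr17:32173311-32173585, fold enrichment 4.12). Beyond the gene's far end, a peak was listed in mK4 only (chr17:32108839-32109095, fold enrichment 4.36) and another in mK3 only (chr17:32118600-32118854, fold enrichment 2.68). The strongest peak within 50 kb in each line overlapped the other's, with a fold enrichment of 7.17 in mK4 and 4.43 in mK3.

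At the starts, a peak within 1 kb was listed for 3 of the 8 members with a RefSeq start window in mK4 (Notch2, Jag1 and Lfng) and for 2 in mK3 (Notch2 and Jag1). The other 5, Notch1, Notch3, Jag2, Dll1 and Neurl1b, had none in either line. Over 11904 tested genes with such a window, 69.8% had a start peak in mK4, 63.6% in mK3, 10.6% in mK4 only and 25.8% in neither. The Lfng start peak of mK4 (chr5:140607082-140607732) had a fold enrichment of 3.39 and a -log10 q of 28.0. A peak centred 2808 bases before the Lfng start in mK4 (chr5:140604318-140604747, fold enrichment 5.43) had a partner in mK3 (chr5:140604406-140604710, fold enrichment 4.14). Both lines thus had a listed peak close upstream, and mK4 alone had one at the start. At Jag1, the mK3 peak (chr2:137116643-137117577) covered 128 of the 250 bases before the start. The mK4 peak (chr2:137116943-137117226) was narrower, lay within the span of the mK3 peak and covered none of these bases.

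Peaks lay at an end of Hes1 and of Hey1 in both lines, although both genes had few counts. At Hes1 the fold enrichment was 3.81 in mK4 (chr16:30065118-30065439) and 3.75 in mK3 (chr16:30065137-30065415). At Hey1 it was 4.12 in mK4 (chr3:8667007-8667261) and 4.65 in mK3 (chr3:8666955-8667263). The RefSeq protein-coding gene LOC115489673 (chr3:8666924-8669688) overlaps this end of Hey1 and spans both Hey1 peaks, so they may belong to either gene. Neurl1b, with the largest RNA change of the 10, had 3 peaks in its span or within 50 kb in mK4, none of them stronger than a fold enrichment of 4.13 and none with a partner. The 1 mK3 peak near it had a fold enrichment of 2.68. Jag2 and Dll1 had 3 and 2 peaks within 50 kb in each line, all with a partner in the other line. The strongest one near Dll1 lay upstream of its start in both, with a fold enrichment of 10.8 in mK4 (chr17:15395941-15396630) and 7.41 in mK3 (chr17:15395959-15396497). In all, 54 peaks lay in or within 50 kb of a member in mK4 and 29 in mK3, and peaks outside a gene may belong to a neighbour.

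**Figure D5:**
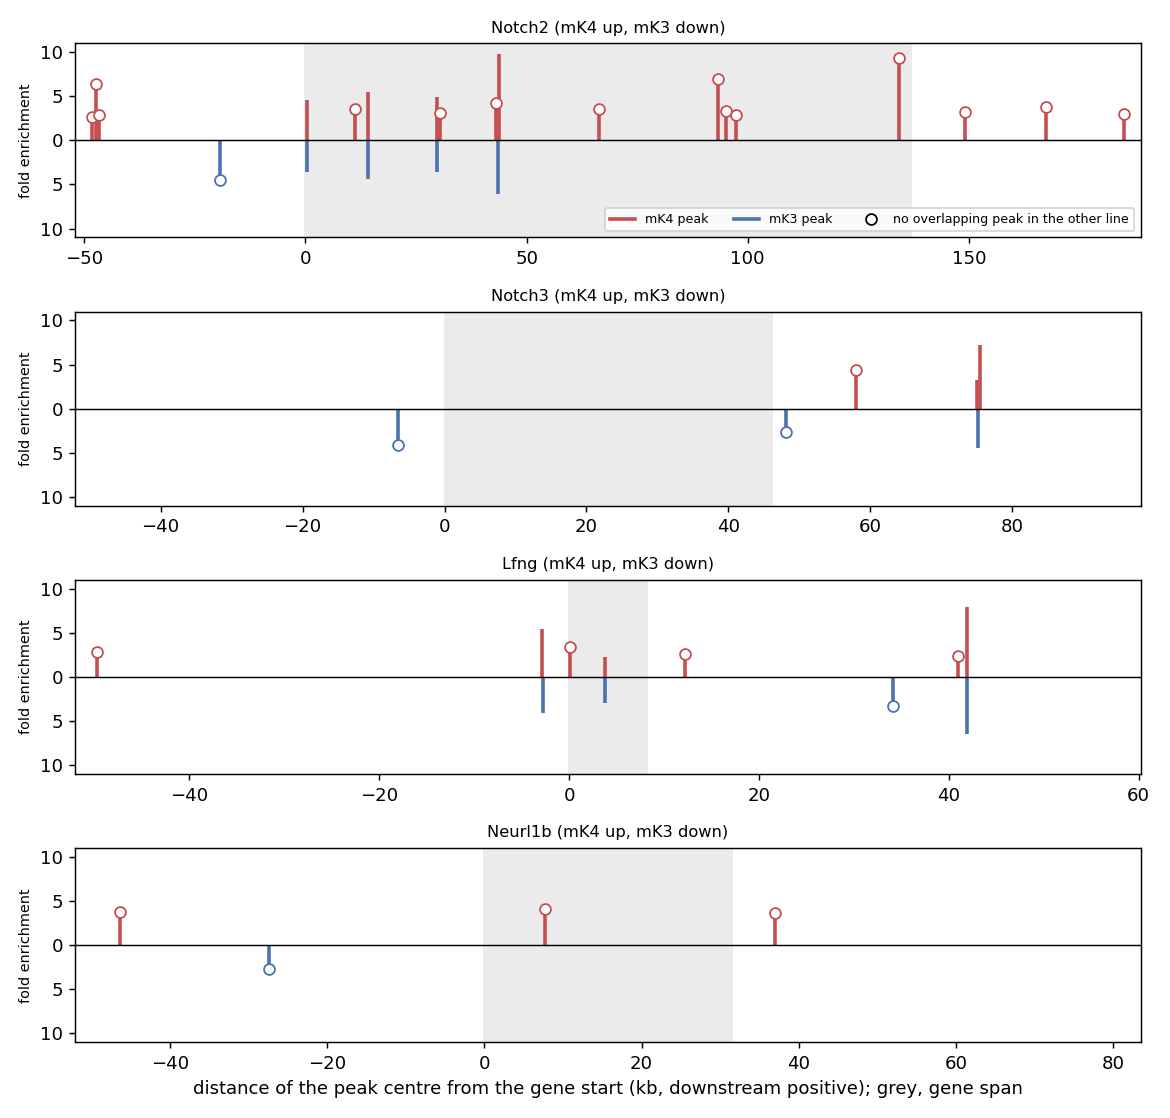
Listed ATAC-seq peaks in and within 50 kb of Notch2, Notch3, Lfng and Neurl1b, by distance of the peak centre from the gene start (kb). Bar length is the authors' fold enrichment, up for mK4 and down for mK3, open circles mark peaks without a partner and grey the gene span, and Notch2 has 12 mK4 peaks and 4 mK3 peaks in its span.

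The surroundings of the members differed. Over all tested genes 20.8% were called higher and 19.5% lower, which is about the number of calls near several members. Among the 10 tested genes nearest to Notch2, 9 were called higher in mK4 and 0 lower, with a median log2 fold change of 1.39, and the median over 853 tested genes of chromosome 3 was 0.69. Of the 10 genes nearest to Lfng 8 were higher and 0 lower, with a median of 1.24, on a chromosome whose median was -0.05. Near Neurl1b 0 of 10 were higher and 4 lower, with a median of -0.49. Near Notch3 the median was -0.03, with 1 higher and 2 lower, and near Notch1 it was 0.25, with 2 higher and 1 lower. Of the 10 genes nearest to Jag1, which fell, 7 were higher and 1 was lower. Near Jag2 1 was higher and 4 were lower, near Dll1 1 and 2, near Hes1 0 and 2, and near Hey1, also on chromosome 3, 2 and 4, with a median of -0.25. The part of copy number or of regional changes in the values of Notch2 and Lfng was not tested.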

How the data were processed

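RNA was measured in 3 libraries of mK4 and 3 of mK3, and open chromatin in 1 ATAC-seq library of each. Per the labels, strand-specific libraries were made from RNA after removal of ribosomal RNA. The deposited table holds raw read counts per feature; its microRNA and circular RNA rows stayed out of the fit. Per the submitters' processing notes, the tools include STAR 2.7.10a, HTSeq 2.0.2, Bowtie2 and MACS3, with the build mm10. Which tool made which values was not stated there. Each deposited peak list gives a fold enrichment (a ratio) and a -log10 q value per peak, by the column order of the format.

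Genes were fitted with edgeR 4.0.16 in R 4.3.3 (filterByExpr, TMM, robust quasi-likelihood test of mK4 against mK3), which left 20405 of 55558 genes. CPM use TMM-scaled library sizes. Each SE is the log2 fold change divided by the root of F. The members and lists were chosen with earlier results of these data known. Named pathway genes were up to 2 per role and direction with the smallest adjusted p, plus Rbpj, Hes5, Heyl, Hey2, Nrarp, Dll4, Notch4, Mfng, Rfng, Adam10, Maml2, Numb and Mib1; some genes that the rules name are not reported here. Maml1, Hes6 and Hes7 were named outside these rules, beside related genes. Pattern genes used log2(CPM + 0.5). Shares used exact permutation. Alternatives were DESeq2 1.42.0, other scaling, filters and biotypes, a non-robust fit, a replicate block and leaving out each library. Gene coordinates and start windows are RefSeq's for GRCm38.p6, matched by symbol for 16655 of 20405 tested genes (81.6%). Peak lists were limited to chromosomes 1 to 19, X and Y, read in Python 3.11.15, and peaks counted as overlapping at 1 shared base. Floors cover counting error only.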

Additional observations from a re-analysis of the deposited data

How the results depend on the processing

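Of 136 values of the 10 members over the alternatives, 132 kept their direction and their side of the threshold, and none turned its direction. The exceptions were Dll1 without mK4 replicate 2 and Jag2 in 3 alternatives, given above. The count of members called higher was 5 and ranged from 4 to 6 when each library was left out, and the count called lower was 2 in every fit, DESeq2 included (6 higher, 2 lower). Of the other pathway genes 20 were higher and 6 lower, against 16 to 18 higher and 4 to 7 lower with a library left out. The Notch2 share differed by 7.21 to 8.79 percentage points and the Jag1 share by -30.8 to -27.1 with a library left out. The direction of Mib1, which was not called, turned without mK4 replicate 3, with log2 fold changes of -0.12 to 0.29 as each library was left out; the cause was not tested. The number of members with a peak dropped to 7 of 10 in mK4 and 5 of 10 in mK3 when only the gene body was searched, which is a smaller region by construction. With only peaks of a -log10 q of at least 10 it was 7 in mK4 and 9 in mK3, against 10 in each line with all peaks. Same-numbered libraries of the lines deviated together at correlations of -0.02, 0.01 and 0.01, so the numbers do not pair them. With the replicate number as a block, 5 members were higher and 2 lower, 16 other pathway genes were higher and 5 lower, the calls of Rfng, Hdac1 and Dtx1 were lost (edgeR adjusted p = 0.107, 0.113 and 0.0854), and the shares differed by 8.22 and -28.9 points (exact two-sided sign-flip permutation p = 0.25 each, the smallest 3 pairs allow). Shares per transcript length were not run, since the reference used gives gene spans only. Dll1, Jag2, Hes1 and Hey1 rest on 191 counts or fewer per library, which limits the precision of their folds.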
